A study of Tachycineta bicolor with 30 samples.

Results

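Cytokines, chemokines, interferons and Toll-like receptors form the signalling layer of innate immunity. Secreted ligands bind receptor chains that act through JAK kinases and STAT factors, through chemokine G protein-coupled receptors, or through adapters shared by Toll-like and interleukin-1 receptors that lead to NF-kappa-B and the interferon regulatory factors. In brain tissue, microglia, endothelium, astrocytes and neurons use the same molecules outside infection, for example IL34 in the upkeep of microglia and CXCL14 and CXCR4 in neural development. The genes described here were the rows of a brain transcript table whose best protein match had a title naming an interferon, a Toll-like receptor, an interleukin, a C-C or C-X-C motif chemokine or one of their receptors. Titles with interleukin enhancer-binding factors or nuclear factor interleukin-3 were left out. This gave 104 members among 19478 rows, with 87 distinct names, and all 104 passed the filter on low values (a normalized count of at least 1 in at least 4 libraries), as did 19473 rows in all.

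Gene expression was measured by RNA sequencing in free-living adult female tree swallows (Tachycineta bicolor), a songbird whose females compete for nest cavities. Females were sampled during territory establishment (TE) or during incubation (INC), and neither group received an experimental treatment. From each female, 3 pieces of tissue were analysed: the ventromedial telencephalon (VmT), a dissected block around nucleus taeniae, the hypothalamus (HYPO) and the hindbrain (HB). Each region had 4 TE and 5 INC libraries, 27 in all out of 30 samples in the labels. In the VmT, 1 library from TE carried the numbers of 2 females in its labels and is called the unresolved VmT library below. Of these 2 numbers, 1 is that of the female that the study left out as an outlier after low RNA quality in the HB and HYPO. Which female gave this library is not known. The dissected blocks held mixed cell types, so fewer cells of a type and less RNA per cell cannot be told apart in any of the values.

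The 27 libraries held 6001315 to 13710385 reads on the listed transcripts, with a median of 8308433. Values are normalized counts, in which a single read was worth 0.627 to 1.41 depending on the library. Of the members, 37 had a mean of at least 50 and 29 had a mean under 10. Marker lists were summarised as the mean of log2(normalized count + 1) over their genes. For 11 hindbrain genes this level was 6.92 to 8.07 in the HB and at most 1.47 elsewhere. For 7 telencephalic genes it was 7.27 to 7.93 in the VmT, 5.96 to 7.30 in the HYPO and at most 5.22 in the HB, whereas 7 hypothalamic genes overlapped between the HYPO (4.72 to 6.49) and the VmT (4.44 to 5.90). In the VmT the level of 24 thalamus and midbrain genes was 3.94 to 5.99 in TE and 6.02 to 6.57 in INC. These groups did not overlap, so the stage contrast of the VmT was also a contrast in that score.

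By role, the members were 6 chemokines, 7 chemokine receptors, 9 interleukins and interferon, 31 interleukin receptor chains, 5 synaptic proteins related to the interleukin-1 receptor accessory protein, 7 Toll-like receptors, 7 adapters and receptor kinases, 6 interferon receptor chains, 12 interferon regulatory factors and their partners, 10 interferon-induced proteins and 4 other proteins with interferon in the title. Some inflammatory ligands had few reads and others more. IL1B, the prototype inflammatory cytokine, had at most 6.86 normalized counts in any library, and the interferon-like row had at most 26.1. IL8-like, a neutrophil chemokine, reached 16.7, whereas IL6 had at least 26.2 in every library and IL18-like had means of 28.4 to 45.0 by region. Ligand rows with many reads included CXCL14 with a mean of 1746 in the VmT, IL17D with 636 in the HB and IL34 with 234 in the VmT. Counts were not corrected for transcript length, so they do not rank genes by level. Receptor chains with many reads included IFNGR1, the ligand-binding chain of the interferon gamma receptor, with 2458 to 2646 on average by region, and IL6ST, the gp130 chain shared by the interleukin-6 family.

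In the VmT, 5 members differed between stages. IRF2BPL, IFI30, IL34 and IL17RC-like were up-regulated during incubation and IFNGR1 was up-regulated during territory establishment. The limma test called 4.81% of members, against 3.53% of all transcripts, so that the share of members called was near the background. By direction, 1 member was higher in TE (0.426% of all transcripts were) and 4 in INC (3.1%), and the median log2 difference of TE minus INC was -0.03 over members and 0.01 over all transcripts. A total of 6 members had TE and INC values that did not overlap, against 4.38% of all transcripts.

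IRF2BPL, a nuclear protein related to the IRF2-binding repressors and expressed widely in neurons, showed the largest stage difference among these members. Its normalized counts in the VmT were 37.3, 27.8, 23.8 and 36.1 in TE and 45.4, 57.6, 76.6, 89.4 and 76.7 in INC. Every INC female was above every TE female, and the log2 difference was -1.10 ± 0.20 (SE, adjusted p = 0.0019, limma). In the HYPO the order was the opposite, with 82.5, 67.4, 74.3 and 67.3 in TE and 64.8, 56.6, 48.9, 44.9 and 49.3 in INC. These groups did not overlap either, although the HYPO difference of 0.46 ± 0.20 did not pass the test (adjusted p = 0.258). The HB values of 39.2, 39.2, 47.8 and 53.2 in TE and 57.5, 37.3, 41.6, 35.3 and 46.8 in INC overlapped.

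IFI30, a thiol reductase of lysosomes that acts in antigen processing, was the second. Its VmT values were 27.1, 22.3, 28.8 and 33.1 in TE and 43.6, 60.0, 44.1, 52.6 and 43.4 in INC. The groups stood apart, with a log2 difference of -0.79 ± 0.19 (adjusted p = 0.0181, limma). Without the VmT TE library of female 85689 the adjusted p was 0.0895, the highest over all single libraries left out. In the HYPO, IFI30 was 50.1, 83.4, 54.7 and 63.4 in TE and 67.6, 48.5, 36.4, 49.1 and 34.6 in INC, which overlapped.

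IL34 is a ligand of CSF1R, the receptor on which microglia depend. Its VmT values were 202, 186, 181 and 171 in TE and 327, 219.8, 244, 264 and 315 in INC, again without overlap. The log2 difference was -0.55 ± 0.16 (adjusted p = 0.0422, limma), close to the threshold, and leaving out any of 8 single libraries ended the call, with adjusted p up to 0.102 (VmT TE 85674, 85689, 85694 and the unresolved one, VmT INC 85757, 85889 and 85899, and HYPO INC 85899). CSF1R itself averaged 370 ± 61.6 (SD, n = 4) in TE and 352 ± 49.9 (SD, n = 5) in INC in the VmT, a log2 difference of 0.07 ± 0.19 (adjusted p = 0.92).

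The titles of the other called receptor rows name IL17RC, a chain of the interleukin-17 receptor, and IFNGR1. IL17RC-like had VmT values of 645, 688, 562 and 726 in TE and 990, 719, 834, 1041 and 852 in INC. A single INC female lay below the highest TE female, and the log2 difference was -0.43 ± 0.11 (adjusted p = 0.0286, limma). The call was lost without the VmT libraries of 85674, 85689, 85757 or 85889 or the unresolved one (adjusted p up to 0.114). For its partner chain IL17RA the isoform X2 row differed by -0.29 ± 0.28 (adjusted p = 0.708). IFNGR1 had 2722, 2839, 2577 and 2800 in TE and 2542, 1961, 2137, 2076 and 2469 in INC, so that all TE values were above all INC values, with a small log2 difference of 0.30 ± 0.08 (adjusted p = 0.0378, limma). The call of IFNGR1 was lost without the VmT library of 85674, 85689, 85694, 85774, 85840 or 85889 (adjusted p up to 0.124), and with the summed low-count transcripts in the fit (0.129). The 2 rows of its partner IFNGR2 differed by 0.54 ± 0.41 (adjusted p = 0.589) and 0.06 ± 0.31 (adjusted p = 0.959).

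**Figure D1:**
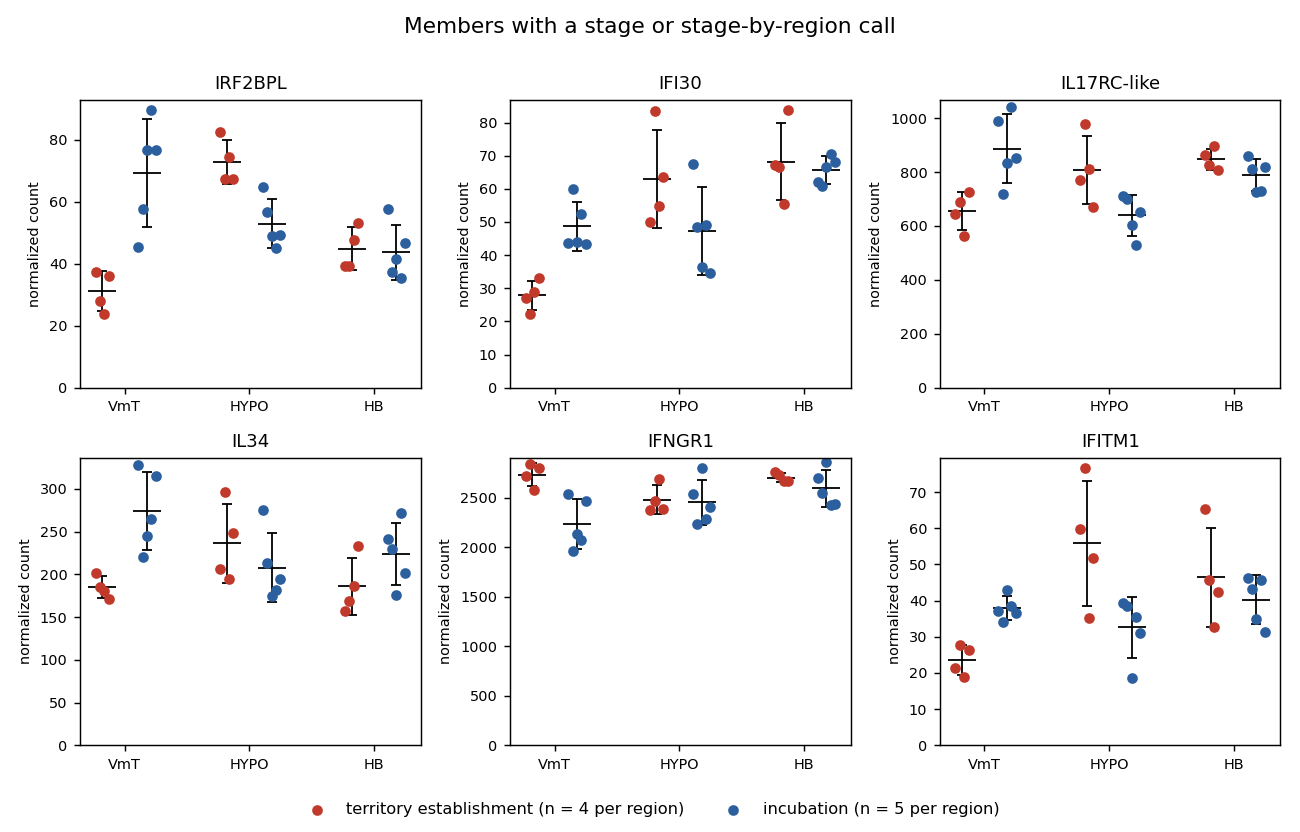
Normalized counts (vertical axes) of the 5 members with a stage call in the VmT and of IFITM1, by region, for territory establishment (red, n = 4) and incubation (blue, n = 5); points are libraries, bars are means and whiskers the SD. In the VmT all INC points of IRF2BPL (45.4 to 89.4) lie above all TE points (23.8 to 37.3), and in the HYPO all lie below (44.9 to 64.8 against 67.3 to 82.5).

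The 5 calls depended on the fit. All 5 were lost when VmT libraries were fitted alone (limma adjusted p 0.135 for IRF2BPL to 0.292 for IFNGR1). All 5 were also lost when that thalamic and midbrain score entered the fit as a covariate (0.0623 for IRF2BPL, 0.172 for IL17RC-like, 0.17 for IL34, 0.236 for IFI30 and 0.269 for IFNGR1). With the covariate the log2 differences were -1.03 for IRF2BPL (-1.10 in the joint fit), -0.67 for IFI30 (-0.79), -0.45 for IL17RC-like (-0.43), -0.62 for IL34 (-0.55) and 0.27 for IFNGR1 (0.30). The count of 5 fell to 2 without the VmT TE library of female 85674, 1 without that of 85689, 3 without the unresolved VmT library and 2 without the VmT INC library of 85889. IRF2BPL kept its call whichever library was left out (adjusted p at most 0.0112). The covariate fit took 1 slope of the score from the spread within all 6 groups. The TE and INC libraries of the VmT did not overlap in that score, so the adjusted stage differences rest on extrapolation. The part of that score in these differences was not tested. Of 8 endothelial markers 0 passed between stages in the VmT (3.53% of all transcripts did), with a median log2 difference of -0.33. Their level of 5.91 to 6.20 in TE overlapped that of 6.18 to 6.52 in INC. Of 12 microglial markers 1 passed, higher in INC (3.1% of all transcripts were), whereas the median over these markers was 0.08. Their level overlapped too (4.97 to 5.17 in TE and 5.09 to 5.30 in INC). The part of both lists was not tested.

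In the HYPO none of the 104 members passed the test between stages, where limma called 0.514% of all transcripts (0.293% higher in TE). Unadjusted p was under 0.05 for 10 members (9.62%, against 14.2% of all transcripts), edgeR on recovered reads called 0 and DESeq2 called 1, CCL3-like (log2 difference 1.64, adjusted p = 0.0484). CCL3-like, a macrophage chemokine, had 19.6, 48.0, 5.21 and 20.7 in TE and 7.04, 9.09, 8.32, 9.40 and 3.46 in INC, and its limma adjusted p was 0.169. Among TE females, 85691 alone lay within the INC range.

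The 3 lowest p-values in the HYPO belonged to IFITM1, IL17RC-like and IL1R2. IFITM1, a membrane protein that restricts virus entry in mammals, had 59.9, 76.6, 35.2 and 51.8 in TE and 39.4, 38.4, 18.7, 35.5 and 31.2 in INC, a log2 difference of 0.75 ± 0.24 (adjusted p = 0.113). Its VmT values of 21.5, 27.8, 18.8 and 26.3 in TE and 37.1, 34.1, 43.0, 38.4 and 36.7 in INC did not overlap and ran the other way (-0.67 ± 0.24, adjusted p = 0.123). IL17RC-like in the HYPO differed by 0.33 ± 0.11 (adjusted p = 0.136). IL1R2, a decoy receptor for interleukin-1, rested on a few reads, with 0 in 1 TE female, at most 2.29 in the other TE females and 0 in all 5 INC libraries (adjusted p = 0.164). A total of 2 members had HYPO groups that did not overlap, against 5.56% of all transcripts: IRF2BPL and GVIN1, a large interferon-induced GTPase, with 33.4, 28.6, 26.1 and 12.9 in TE and 38.0, 47.5, 62.4, 46.0 and 60.6 in INC (-1.04 ± 0.39, adjusted p = 0.188).

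In the HB no member passed the test, where 0.00514% of all transcripts did, and 4 members had unadjusted p under 0.05 (3.85%, against 3.32% of all transcripts). Both edgeR and DESeq2 called 0. No member had groups that stood apart, against 1.45% of all transcripts. The lowest p-values came from rows near the limit of detection: IL1B (-1.29 ± 0.56), IL8-like (-1.40 ± 0.61) and CCL4 homolog (1.28 ± 0.59), each with adjusted p = 1 and at most 9.02 normalized counts in an HB library.

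The stage difference itself was then compared between regions. For 6 members it differed between the VmT and the HYPO, always lower in the VmT, that is, more towards incubation, and for 0 it was higher (0.673% of all transcripts). This was 5.77% of members against 5.95% of all transcripts, and 5.28% of all transcripts differed in that direction. The members were IRF2BPL (difference of log2 differences -1.57 ± 0.28, adjusted p = 0.000698), IL17RC-like (-0.76 ± 0.16, 0.003), IFI30 (-1.21 ± 0.27, 0.00563), IFITM1 (-1.42 ± 0.33, 0.00795), IRF2BP2 isoform X2 (-3.13 ± 0.81, 0.0166) and IL34 (-0.74 ± 0.22, 0.0406). For each of the 6 the TE minus INC difference was negative in the VmT and positive in the HYPO. The median over members was -0.10, against 0.03 over all transcripts. Over the 24 thalamus and midbrain genes the median was -0.94, and for 3 of them the stage difference was called lower in the VmT. The fit with their score as a covariate covered the stage contrasts only. The part of that score in these 6 calls was therefore not tested.

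IRF2BP2 isoform X2, a row for a repressor that binds IRF2, had few reads. Its VmT values were 4.66, 2.78, 0.63 and 4.87 in TE and 1.85, 5.88, 7.34, 44.7 and 25.6 in INC, and in the HYPO they were 26.5, 9.14, 30.0 and 23.3 in TE and 5.63, 11.1, 5.20, 6.27 and 5.19 in INC. The high VmT values came from INC females 85889 and 85899, and the groups overlapped in both regions. Without the unresolved VmT library the adjusted p of the difference between regions was 0.0508, and it was 0.0768 (-2.17) when the summed low-count transcripts entered the fit. The IRF2BP2 partial row, which carried far more reads of that gene name (535 to 911 in all libraries), had a stage difference of 0.00 ± 0.11 in the VmT and 0.19 ± 0.11 in the HYPO.

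For IL34 the difference between regions was lost with any of 12 single libraries left out, with adjusted p up to 0.111. These were the HYPO INC libraries of 85774, 85840, 85889 and 85899, the HYPO and VmT TE libraries of 85689 and 85694, the VmT INC libraries of 85757, 85889 and 85899, and the unresolved one. It was also lost with TMM scaling (0.0515), quantile normalization (0.0516) and no mean-variance trend (0.0555). The other 4 kept their calls whichever library was left out. Between the VmT and the HB no member passed (0.437% of all transcripts did) and 8 had unadjusted p under 0.05 (7.69%, against 8.45% of all transcripts). IRF2BPL came closest at -1.15 ± 0.28 (adjusted p = 0.0553), and passed with the female as a block (0.0303) and with DESeq2 (0.0177), while edgeR called 0. For the HYPO against the HB, neither members nor any other transcript passed with limma (0%), 3 members had unadjusted p under 0.05 (2.88%, against 6.23% of all transcripts), and edgeR and DESeq2 called 0 members.

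**Figure D2:**
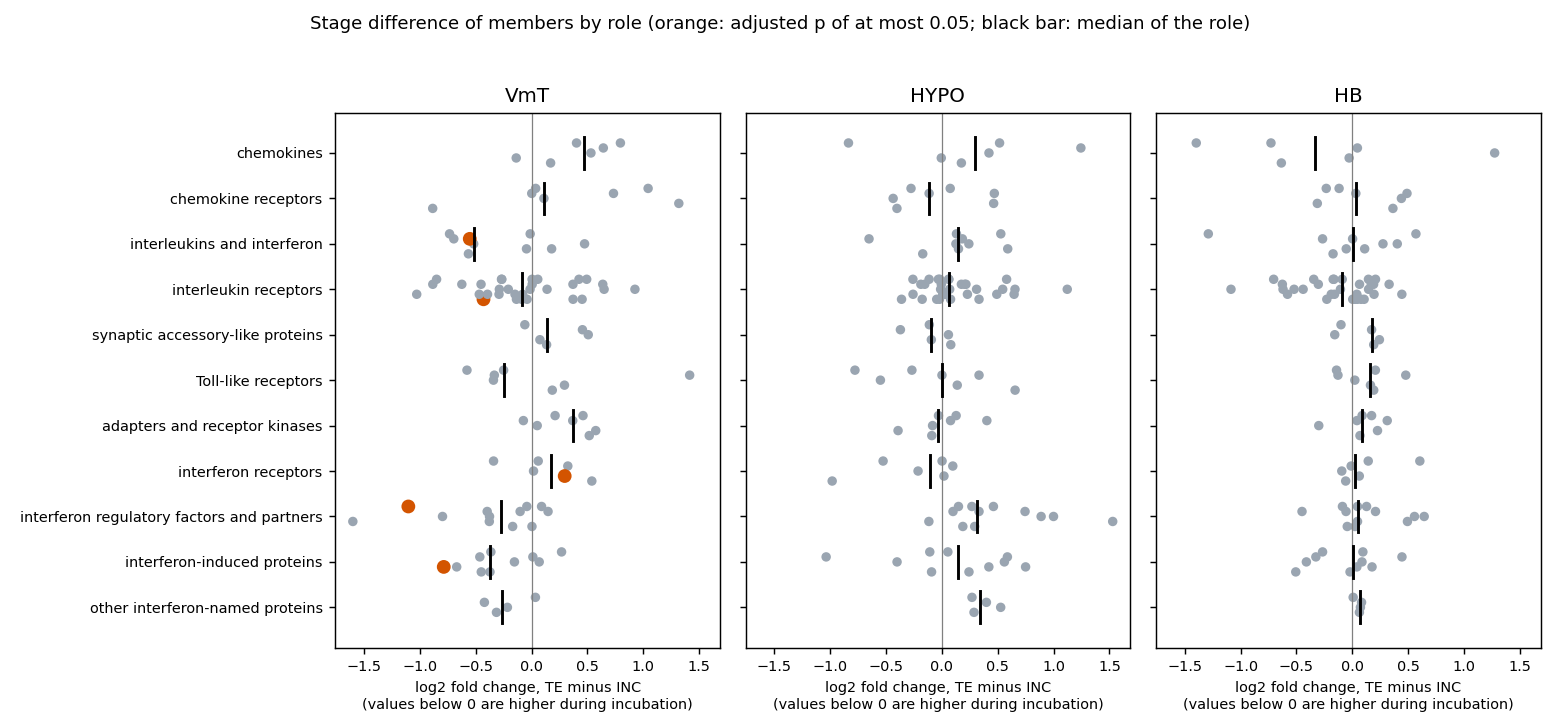
Log2 stage differences (TE minus INC) of all 104 members by role in each region, 1 point a member, with orange for members that passed the test and black bars for the median of the role. The 5 called members are all in the VmT panel, and in the other panels every point is grey.

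Downstream of these receptors, 3 lists of other genes were examined: JAK-STAT signalling (21 matched of 32 names listed), NF-kappa-B and Toll adaptors (22 of 25) and antiviral sensing and effectors (22 of 43). Listed genes that were already members, such as IL6ST, TIRAP, IFIH1, STING1 and EIF2AK2, were left out of the matched counts. Some genes were also listed under alternative names, so an unmatched name need not be an unmeasured gene. In the VmT 1 gene of these lists passed between stages, where 3.53% of all transcripts did. This was STAT5B, a STAT factor used by prolactin, growth hormone and interleukin-2 family receptors, with 285, 212, 281 and 282 in TE and 329, 327, 368, 378 and 340.2 in INC. The groups did not overlap (-0.40 ± 0.09, adjusted p = 0.0136), and as with the 6 members the stage difference was lower in the VmT than in the HYPO (-0.69 ± 0.13, adjusted p = 0.00174). Alternative fits were examined for members only. Whether the STAT5B calls hold with VmT libraries alone, with the thalamic and midbrain score or with single libraries left out was not tested. In the HYPO 1 JAK-STAT gene passed, where 0.514% of all transcripts did. This was CISH, a feedback inhibitor of STAT5 signalling, which was higher during incubation. The CISH call was not examined in alternative fits either. In the HB none passed (0.00514% of all transcripts did). The NF-kappa-B and antiviral lists had no stage call in any region by limma. For 1 antiviral gene the stage difference was lower in the VmT than in the HYPO (5.28% of all transcripts). In the VmT the JAK-STAT list had levels of 6.70 to 6.86 in TE and 6.91 to 7.10 in INC, without overlap. Antiviral levels (5.62 to 5.77 and 5.74 to 6.04) and NF-kappa-B levels (7.39 to 7.52 and 7.41 to 7.59) overlapped. In the HYPO and the HB the levels of all 3 lists overlapped between stages. List levels were not tested.

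More members differed between regions than between stages. Between the VmT and the HB 27 members passed the test, or 26% of members against 43.4% of all transcripts. Of these, 10 were higher in the VmT (17.6% of all transcripts were) and 17 in the HB (25.7%). Between the VmT and the HYPO 16 passed (15.4% against 25.9%), 3 higher in the VmT (11.7% of all transcripts) and 13 in the HYPO (14.1%). Between the HYPO and the HB 10 passed (9.62% against 12.4%), 4 higher in the HYPO (5.33% of all transcripts) and 6 in the HB (7.05%). In each comparison the share of members called was below that of all transcripts. These shares were not matched for read level. Of the 104 members 37 had a mean of at least 50 and 29 had means under 10, and of all 19478 rows 7681 had a mean under 50. Non-overlapping values were found in 7, 2 and 2 members, against 9.94%, 3.48% and 2.49% of all transcripts.

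Ligands divided by region. CXCL14, a chemokine made by neurons and epithelia, was highest in the VmT, with values of 1390 to 2039 (median 1746) there, 645 to 1289 (median 1085) in the HYPO and 679 to 897 (median 725) in the HB. The VmT values did not overlap those of either other region. The log2 difference was 0.78 ± 0.10 from the HYPO (adjusted p = 1.82e-06), 1.20 ± 0.10 from the HB (2.29e-10) and 0.42 ± 0.10 between the HYPO and the HB (0.00653). IL17D, a secreted interleukin-17 family member, was highest in the HB, with 326 to 505 in the VmT, 314 to 499 in the HYPO and 539 to 736 in the HB. The VmT and HYPO values overlapped, and their difference did not pass in the joint fit (-0.14, limma adjusted p = 0.257). All HB values were above all others, by 0.74 ± 0.09 from the VmT (adjusted p = 1.08e-07) and 0.60 ± 0.09 from the HYPO (2.04e-05). IL34 did not order by region, with means of 234, 220.4 and 207.

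Among receptors, the components of interleukin-6 signalling ran in opposite directions. IL6ST, the signal-transducing chain, had 769 to 993 in the VmT, 1078 to 1335 in the HYPO and 1440.1 to 1753 in the HB, so that no pair of regions overlapped. Its log2 differences were -0.88 ± 0.06 for the VmT against the HB (adjusted p = 2.1e-12), -0.46 ± 0.06 for the VmT against the HYPO (1.36e-06) and -0.42 ± 0.06 for the HYPO against the HB (1.16e-05). IL6R, the ligand-binding chain, was highest in the VmT with a mean of 177 ± 17.0 (SD, n = 9), against 145 ± 22.5 in the HYPO and 116 ± 20.9 in the HB. The difference between the VmT and the HB was 0.61 ± 0.10 (adjusted p = 1.42e-05) with no overlap, whereas those that involved the HYPO (adjusted p 0.0404 and 0.0272) were lost with 12 and 5 single libraries left out, with adjusted p up to 0.1 and 0.0755. The 12 were those of 85674, 85689, 85694 and 85889 in both regions, of 85757 and the unresolved one in the VmT, and of 85840 and 85899 in the HYPO, and the 5 were those of 85689 and 85899 in the HB and of 85691, 85757 and 85774 in the HYPO. IL6 itself had means of 52.3, 49.4 and 46.1 in the VmT, HYPO and HB, and its stage difference in the VmT was 0.47 ± 0.23 (adjusted p = 0.312). IL11RA, which signals through the same chain for interleukin-11, averaged 160 ± 56.7 in the VmT, 235 ± 53.8 in the HYPO and 270 ± 58.3 in the HB, and was lower in the VmT than in the HB by 0.85 ± 0.18 (adjusted p = 0.000265) and than in the HYPO by 0.62 ± 0.18 (0.00875).

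IL18R1, the ligand-binding chain of the interleukin-18 receptor, had the largest region difference of any member. Its values were 91.3 to 434 (median 207) in the VmT, 36.6 to 98.4 (median 58.0) in the HYPO and 23.7 to 65.5 (median 37.0) in the HB. The VmT was above the HB in every library and by 2.32 ± 0.23 on the log2 scale (adjusted p = 3.88e-09), and above the HYPO by 1.73 ± 0.23 (1.95e-06), with 1 VmT library inside the HYPO range. Between the HYPO and the HB the adjusted p was 0.0976, and 0.0446 with the female as a block. The IL18-like ligand row was lower in the VmT than in the HB (28.4 ± 11.5 against 45.0 ± 10.4, log2 difference -0.75 ± 0.24, adjusted p = 0.0141).

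IL31RA, a gp130-related chain of the interleukin-31 receptor, had 24.7 to 68.9 in the VmT, 42.4 to 106 in the HYPO and 87.4 to 147 in the HB. It passed in all 3 comparisons (-1.48 ± 0.19 for the VmT against the HB, adjusted p = 4.11e-07), and its VmT and HB values did not overlap. IL2RB, a chain shared by the interleukin-2 and interleukin-15 receptors, ran the other way with means of 71.2, 63.8 and 42.4. It was higher in the VmT than in the HB by 0.69 ± 0.18 (adjusted p = 0.00249), and its call between the HYPO and the HB (adjusted p = 0.0319) was lost with 8 single libraries left out, those of 85840 and 85899 in both regions, 85674 and 85691 in the HB and 85689 and 85694 in the HYPO (adjusted p up to 0.0811).

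**Figure D3:**
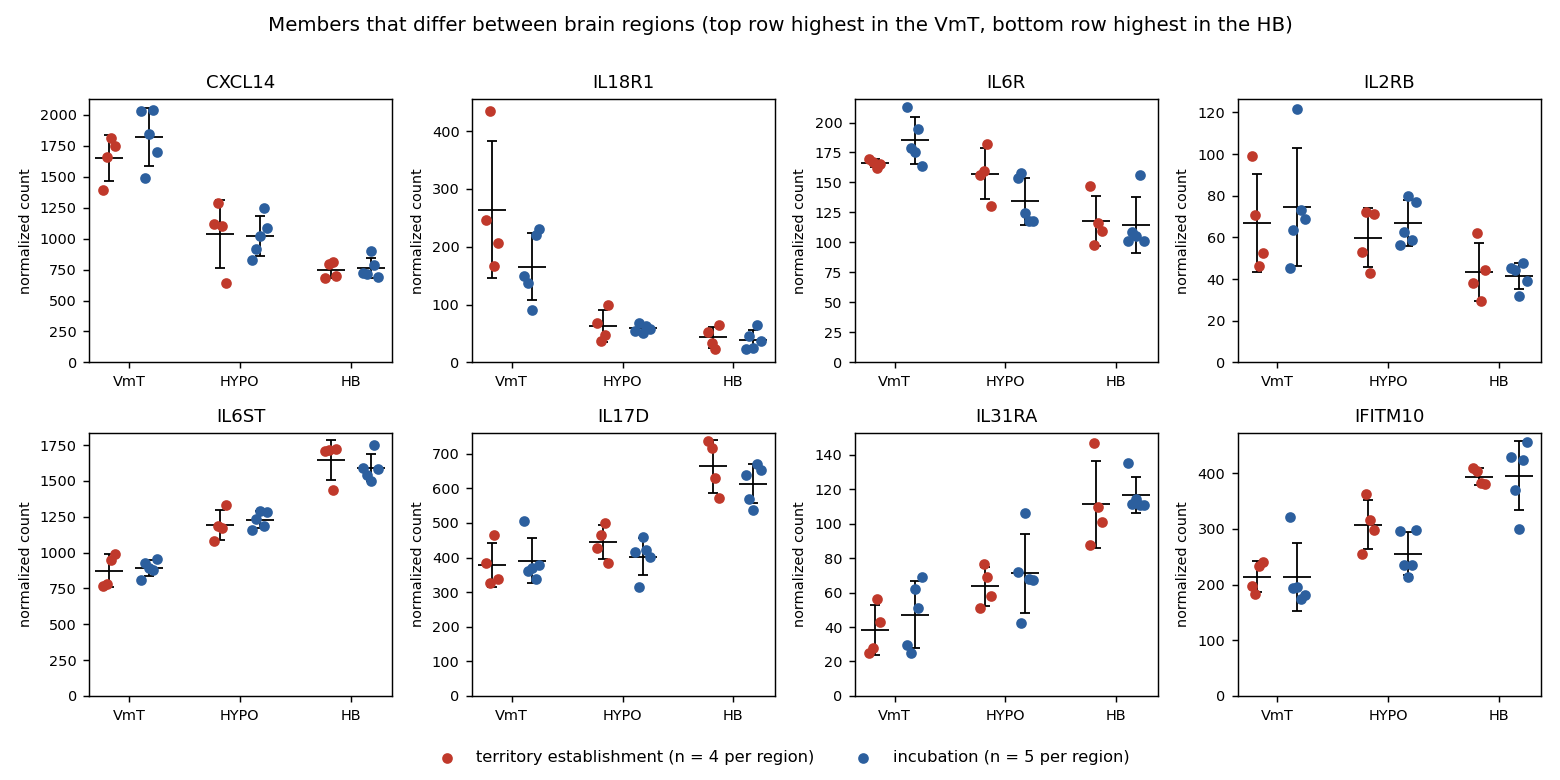
Normalized counts (vertical axes) of 8 members in the VmT, HYPO and HB, with territory establishment in red (n = 4 a region) and incubation in blue (n = 5); points are libraries, bars means and whiskers the SD. The upper panels show members highest in the VmT (CXCL14, 1390 to 2039 there) and the lower panels members highest in the HB (IL6ST, 1440.1 to 1753 there).

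The interferon-induced and interferon-named proteins that differed were all lower in the VmT than in the HB. IFIT5-like, which matches an RNA-binding protein that birds and mammals induce with interferon, had means of 112 ± 46.5 in the VmT, 198 ± 91.0 in the HYPO and 416 ± 199 in the HB (SD, n = 9). The VmT and HB values did not overlap (-1.89 ± 0.27, adjusted p = 1.49e-06), and the HYPO was below the HB by 1.04 ± 0.27 (adjusted p = 0.00863). IFI30 and IFITM1 were lower in the VmT than in the HB by 0.85 ± 0.14 (9.22e-06) and 0.50 ± 0.17 (0.0168), and IFITM10, an IFITM relative with no known antiviral role, by 0.90 ± 0.11 (1.04e-07). EIF2AK2, the double-stranded RNA sensor PKR, and IFIH1, the sensor MDA5, did not pass in any comparison, with means of 303 to 350 and 81.8 to 97.0 by region. Of the antiviral list, 9 of 22 genes were lower and 2 higher in the VmT than in the HB, where 25.7% of all transcripts were lower and 17.6% higher.

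CXCR4, the receptor of CXCL12 in cell migration, was lower in the VmT (59.6 to 113) than in the HYPO (112 to 205; -0.74 ± 0.16, adjusted p = 0.000891) and the HB (83.6 to 211; -0.82 ± 0.16, 0.000142). TLR3, which senses double-stranded RNA, was the Toll-like receptor with the most reads and was also lowest in the VmT, with means of 63.7 ± 12.2 in the VmT, 98.1 ± 13.9 in the HYPO and 93.1 ± 17.1 in the HB (-0.62 ± 0.13 and -0.53 ± 0.13, adjusted p = 0.000543 and 0.00126). TLR4, the lipopolysaccharide receptor, averaged 20.7, 19.9 and 24.3 and did not pass. The rows of TLR1, TLR2, TLR5 and TLR7 had means of at most 8.46 in any region. IRF8, a factor of the myeloid lineage, was lower in the VmT than in the HB (60.0 ± 10.5 against 87.1 ± 19.7, -0.54 ± 0.14, adjusted p = 0.00266).

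The adapter, kinase and factor rows given next did not pass in any region or stage comparison of the joint fit, but some passed in other fits. They are not all of the rows with many reads. IRF2BP2 partial, the factor row with the most reads (means of 693, 637 and 601), is not among them. Of the 12 factor and partner rows, 1 was called higher in the VmT than in the HB (17.6% of all transcripts were). Another 2 were called lower (25.7%), IRF8 among them. Between the VmT and the HYPO 1 of these rows was called, lower in the VmT (14.1% of all transcripts were). Between the HYPO and the HB 1 was called, IRF2BPL, higher in the HYPO (5.33% of all transcripts were). Its log2 difference was 0.49 (limma adjusted p = 0.0188). With the female as a block, IRF2 passed between the VmT and the HYPO (log2 difference 0.14 ± 0.05, adjusted p = 0.0394) and IRAK1BP1 isoform X1 between the VmT and the HB (0.27 ± 0.10, adjusted p = 0.023), and both also passed with TMM scaling, edgeR and DESeq2. IRF2 passed between the VmT and the HB too with TMM scaling (adjusted p = 0.0215), edgeR (0.0192) and DESeq2 (0.0289). IRAK1BP1 isoform X1 passed between stages in the VmT without the TE library of 85694 (0.0252) and with the summed low-count transcripts in the fit (0.0445). IRAK1BP1 isoform X1, which binds a kinase of the interleukin-1 and Toll-like receptor pathway, averaged 1054 ± 273 in the VmT, 1028 ± 134 in the HYPO and 866 ± 135 in the HB (VmT minus HB 0.27 ± 0.11, adjusted p = 0.0521). IRAK4 isoform X1, a kinase that Toll-like receptors need, had means of 126, 103 and 108, and TIRAP, an adapter of TLR2 and TLR4, had 71.4, 64.9 and 64.2. Among the factors, IRF1, an activator induced by interferon gamma, averaged 89.5, 98.2 and 106, its antagonist IRF2 595, 538 and 557, and IRF7 isoform X4, which drives type I interferon in mammals, 104, 99.9 and 90.8.

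Markers of glia and vessels also differed between regions. Of 12 microglial markers 6 were lower in the VmT than in the HB and none higher (median -0.42), CSF1R among them (-0.42 ± 0.13, adjusted p = 0.0105). So were 4 of 8 endothelial markers (median -0.29), 3 of 5 astrocyte markers (median -0.60) and 4 of 4 oligodendrocyte markers (median -1.57). Of all transcripts 25.7% were lower (median -0.08). In the same order of lists, 0, 2, 3 and 3 markers were lower in the VmT than in the HYPO, where 14.1% of all transcripts were. Lower in the HYPO than in the HB were 1, 1, 2 and 3 markers, where 7.05% of all transcripts were. Oligodendrocyte levels were 8.41 to 9.52 in the VmT and 10.1 to 11.3 in the HB, and astrocyte levels 11.1 to 11.6 and 11.8 to 12.2. Their part in the member differences was not tested.

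The remaining ligand and receptor pairs showed no stage call. CCR7 and CCL21-like, a pair that guides lymphocytes and dendritic cells, were near detection, with at most 8.40 and 18.7 normalized counts. CCL21-like was higher in the HB than in the VmT and the HYPO (1.08 ± 0.31 and 1.70 ± 0.31 on the log2 scale, adjusted p = 0.00572 and 0.00029). The type I interferon receptor chains had means of 34.8 to 40.6 for IFNAR2 and 9.42 to 10.7 for the main IFNAR1 row by region, and IL10RB, a chain shared by the interleukin-10 family, had 280.2 to 319. IL1RAP, the accessory chain of the interleukin-1 receptor, was lower in the VmT than in the HB (312 ± 39.2 against 390.3 ± 73.3, -0.32 ± 0.11, adjusted p = 0.0142). Neither IL1RAP nor any of the 4 IL1R1 rows passed between stages, and no IL1R1 row passed between regions, with VmT minus HB values of -0.34 to 0.35.

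The synaptic relatives of IL1RAP differed by row. IL1RAPL1 and IL1RAPL2 organise synapses in mammals. IL1RAPL1 isoform X1 was higher in the VmT than in the HB (132 ± 50.2 against 88.2 ± 28.3, 0.56 ± 0.21, adjusted p = 0.0304), a call lost without the HB library of 85674, 85694 or 85774, the VmT library of 85889 or the unresolved one (adjusted p up to 0.0871). IL1RAPL2 isoform X6 was lower in the VmT than in the HYPO (201 ± 44.1 against 268 ± 55.4, -0.41 ± 0.14, adjusted p = 0.0296), and so was isoform X3 (-0.52 ± 0.16, 0.0152).

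Since the same females gave all 3 regions, likeness within a female was described by the intraclass correlation of deviations from the group means. It was taken over the 8 females with a library of every region, without the unresolved VmT library. The group means themselves were those of all libraries, also the unresolved one and those of female 85691. Values far off in these libraries therefore shift the deviations of the other TE females together and can raise the correlation. It was computed for transcripts with a mean of at least 20, of which 56 were members, and it has no test here. The median was 0.361 over members and 0.276 over all 14333 transcripts, and 26.8% of the members exceeded 0.5, against 23.5% of all. The members described next were singled out after their values were seen. IFIT5-like had the highest value, 0.872, higher than in 98.7% of all transcripts. Female 85689 had 158, 388 and 893 in the VmT, HYPO and HB, and female 85694, of the same stage, had 49.7, 117 and 223, the lowest in each region. IL1RL2, the receptor of interleukin-36, followed at 0.832, with 28.0 and 23.6 in the VmT and HYPO of female 85674 and 56.5 and 79.0 in female 85694. IL20RA, a receptor chain for interleukins of the IL-10 family, reached 0.778, with 165 in the HYPO and 219.4 in the HB of female 85691, which was not among the 8, against 25.9 and 32.6 in female 85694. These high values of female 85691 entered the TE group means, and their part in the 0.778 was not tested. TLR4 (0.643) and STING1 (0.576), the latter the adapter for cytosolic DNA sensing, were low in female 85757 in all 3 regions, with TLR4 at 9.27, 12.7 and 9.02 and STING1 at 12.1, 14.1 and 20.3. Region means were 19.9 to 24.3 for TLR4 and 33.7 to 37.5 for STING1, and that female was the lowest for both genes except for TLR4 in the HYPO, where female 85840 had 9.36.

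**Figure D4:**
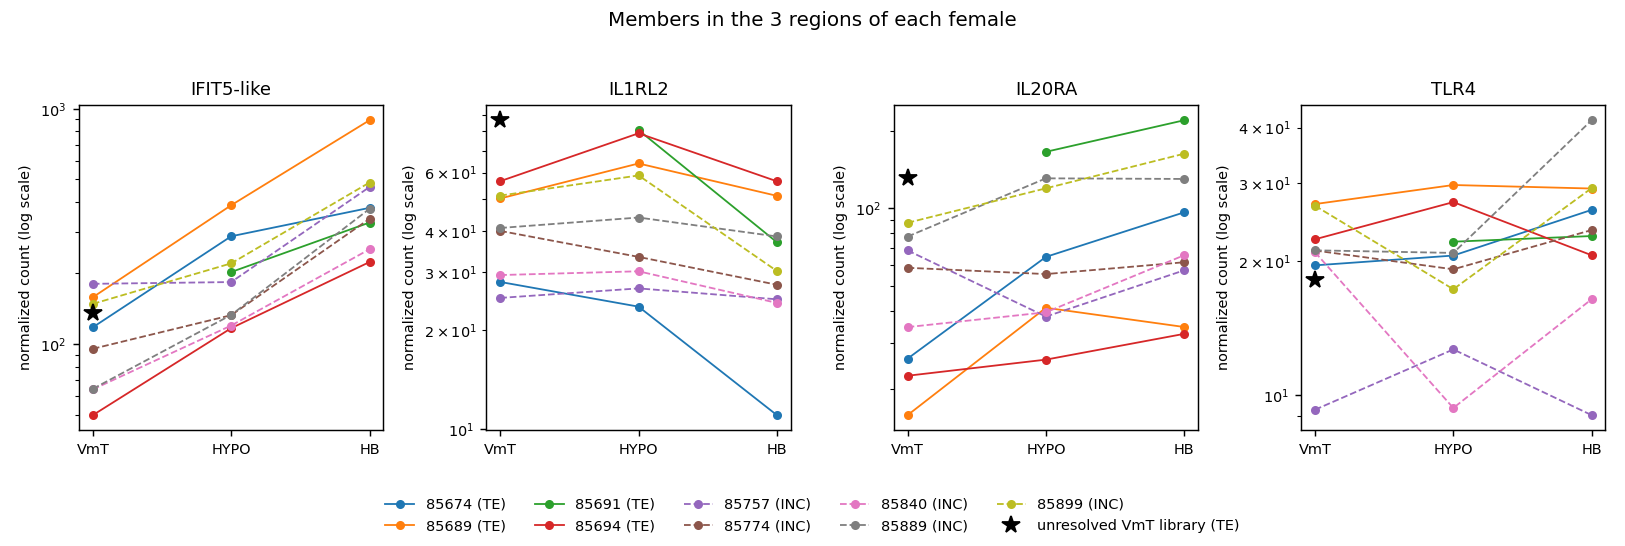
Normalized counts on a log axis of IFIT5-like, IL1RL2, IL20RA and TLR4 in the VmT, HYPO and HB; each coloured line joins the libraries of 1 female, solid for territory establishment and dashed for incubation, and the star is the unresolved VmT library. Female 85689 is uppermost for IFIT5-like in the HYPO and HB (388 and 893), and female 85757 is lowest for TLR4 in the VmT and HB (9.27 and 9.02).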

How the data were processed

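The deposited table gives 1 normalized value per transcript and library (27 libraries). Per the study's methods and the submitters' processing notes, reads were trimmed with Trimmomatic 0.36, mapped to a tree swallow transcriptome with Bowtie2 2.3.4.1 and filtered to proper pairs with SAMtools 1.3.1, and the authors normalized counts with DESeq2 1.16.1 in R 3.4.1. Normalized counts (unit signal, size-factor scaled, not corrected for length) are what was deposited: in each library 100% of values came out as whole reads within a tolerance of 0.1, so reads could be recovered. The name of the table speaks of FPKM, but no length correction is present, so levels were not compared between genes. Gene names are those of the best protein match in another species, and reads may be split between rows of a gene. Poly-A libraries were used. No sequence was used here.

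Log2(value + 1) was fitted with limma 3.58.1 (R 4.3.3) over 6 groups, with a mean-variance trend and Benjamini-Hochberg adjustment over 19473 transcripts, and an adjusted p of at most 0.05 was called. This joint fit took all libraries as independent and left out the pairing of regions within females. A fit with the female as a block, given as an alternative, took the pairing in. A fold change on this scale understates that of low genes. Contrasts were TE minus INC per region, regions averaged over both stages, and differences of stage differences. The limma fit was tested on simulated data for the stage contrast of the VmT only. That simulation had independent libraries and changes in transcripts with a mean of at least 50. The other contrasts, fits and descriptions were not tested in this way. Alternatives used other pseudocounts (0.5 and 4), filters, TMM and quantile scaling, edgeR 4.0.16 and DESeq2 1.42.0 on recovered reads, regions alone, covariates, and each library left out. Pairing comes from the labels, which give the female. Deviations within a female correlated at -0.215 to 0.384 (median 0.142, 25 pairs) and the consensus correlation was 0.205. Samples are different females, except that regions share females. HB and HYPO samples of the female that the study left out as an outlier are not analysed here, but the unresolved VmT library also carries the number of that female.

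Members and lists were chosen with earlier results of these data known. Named genes were every member called between stages or in a difference of stage differences, up to 5 called members a direction with a mean of at least 50 in each region comparison, the 3 lowest p-values per region, fixed ligand and receptor pairs, members with most reads per role, and pathway genes called between stages. Figures were drawn with matplotlib 3.10.9 and tables made with pandas 2.3.3 and scipy 1.17.1 in Python 3.11.15.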

Additional observations from a re-analysis of the deposited data

Results flagged for a closer look

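The stage difference of 6 members differed between the VmT and the HYPO by the test of that difference (difference of log2 differences): IRF2BPL -1.57, IL17RC-like -0.76, IFI30 -1.21, IFITM1 -1.42, IRF2BP2 isoform X2 -3.13 and IL34 -0.74. This was 5.77% of members, against 5.95% of all transcripts (5.28% in that direction), so the share was near the background. The thalamic and midbrain score was not entered in this comparison. The mean log2 level of 12 microglial markers was 5.18 to 5.64 in TE and 5.00 to 5.29 in INC in the HYPO, and 4.97 to 5.17 and 5.09 to 5.30 in the VmT; its part in these differences was not tested.

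A single library stood far from the others of its group in 10 of 144 checks (24 members in 6 groups). The criterion is set to flag about 1 in 20 groups of normally distributed values. It was applied to counts without a log scale, so 10 of 144 cannot be compared with that rate. Female 85757 was highest in the VmT during incubation for IFITM10 (322 against 174 to 196) and IL17D (505 against 338 to 378), and in the HB for IL31RA (135 against 111 to 114). Female 85889 was highest in the HB for IL6R (156 against 101 to 109) and in the VmT for IL1RAPL1 isoform X1 (232 against 85.6 to 127). Female 85691 was lowest in the HB for IL6ST (1440.1 against 1707 to 1724). Female 85774 was highest in the HYPO for IRF2BP2 isoform X2 (11.1 against 5.19 to 6.27). The other flags were single reads among zeros, a pattern that the criterion always flags. They were IL1R2 in the unresolved VmT library (0.63) and in the VmT of female 85757 (0.93), and CCL4 homolog in the HB of female 85889 (1.04).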

How the results depend on the processing

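Over 44 results for single members and 1775 values under alternatives, 1686 kept their direction and their side of the threshold, 89 kept their direction but lost the call, and 0 reversed. This tally does not measure stability. It includes fits that left out a library of a region outside the comparison, where the log2 difference could not change. Only the 38 results called in the joint fit could lose a call. The count of 5 stage calls in the VmT was 0 with VmT libraries alone, 0 with the thalamic and midbrain marker score in the fit, 3 without a mean-variance trend (IL34 and IFNGR1 lost) and 1 to 5 with single libraries left out; with fewer libraries the first alternative also has fewer residual degrees of freedom, and for the others the cause was not tested. TMM scaling ended the stage call of IL34 (adjusted p = 0.0548), and edgeR and DESeq2 each gave 6 by adding IRF2BP2 isoform X2. With the summed low-count transcripts in the limma fit, IFNGR1 lost its stage call in the VmT (adjusted p = 0.129). In that fit IL18R1 (1.20 ± 0.31, adjusted p = 0.0302, against 0.65 and 0.349 in the joint fit) and IRAK1BP1 isoform X1 (0.61 ± 0.17, 0.0445) gained a stage call there. The HYPO count of 0 was 1 with DESeq2 (CCL3-like). The count of 0 for stage differences that differ between the VmT and the HB was 1 with a mean of at least 50, 2 with DESeq2 (IRF2BPL and IL17RC-like), 1 without the 3 libraries of female 85757 and 0 to 1 with single libraries left out; the cause was not tested.

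In a fit that took the female as replicate block, 1 member (IRF2BPL) had a stage difference that differed between the VmT and the HB, also with the unresolved VmT library taken as female 85691 (1). Region counts of 16, 27 and 10 were 23, 31 and 12 with the block, within 1.5 times, and the stage count in the VmT was 5. With single libraries left out the region counts were 13 to 18, 24 to 30 and 8 to 12, and the 6 stage differences that differ between the VmT and the HYPO were 4 to 7.

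Depth limits the lowest members: 29 of 104 had means under 10, where 1 read is worth 0.627 to 1.41 and a difference was not detectable at this depth unless it was large. Groups of 4 and 5 females limit the stage comparisons.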
